A study of Homo sapiens with 6 samples.

Results

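Ion channels, exchangers and a carbonic anhydrase of epithelial secretion and absorption were described in SW480 cells with a lentiviral guide against HPSE and in their controls. The genes were GABRP, ABCC8, KCNJ11, CLCN1, SLC26A9, CFTR, CA4, SCNN1A, ANO1 and KCNQ1, and they were taken as the features of the deposited table whose Ensembl identifier carries one of these symbols. All 10 had a feature of their own among the 59192 features. The set was selected on the normalized counts of these same libraries, with the differences between SW480-45 and SW480-NC known, so its values are given as a description and without a test. In SW480-45, 8 of the 10 genes were higher than in SW480-NC and 2 were lower, and for none of the 10 did the values of the groups overlap. Of the 21703 features tested, 11.4% were higher and 12.0% were lower without overlap, and 23.4% were separated in either direction. GABRP, CLCN1, CA4, ABCC8 and SLC26A9 were higher by 2.16-fold to 2.89-fold, ANO1 stood at 30.8% of its control level, and CFTR, the most abundant of the set, stood at 93.0%.

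SW480 is a cell line of a human colorectal adenocarcinoma. Both groups were infected with a Cas9 lentivirus and selected with puromycin, and then received a lentivirus with a guide RNA and EGFP. The guide of SW480-45 targets HPSE, which encodes heparanase, an enzyme that cleaves heparan sulfate, and SW480-NC carries the control guide. The labels call the knockdown group SW480-45, and it was taken as the SW480-KD1 line because no other knockdown line was described as sequenced. Total RNA was sequenced from 3 libraries per group, prepared from independent experiments. Whether SW480-45 is a single clone or a pool of infected cells is not given in the sources used here.

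Epithelial cells secrete fluid by letting chloride and bicarbonate leave through apical channels such as CFTR, while potassium channels keep the driving force. They absorb fluid by taking up sodium through the epithelial sodium channel. In the colon, crypt cells are best known for secretion and surface cells for absorption.

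For HPSE (ENSG00000173083), which the guide targets, the SW480-45 libraries gave 136, 172 and 146 normalized counts and the controls 269.9, 295 and 246. The groups did not overlap, and the SW480-45 mean was 56.1% of the control mean. The log2 difference was −0.83 (standard error, SE, 0.14), which with limma's adjusted p = 0.0547 missed the threshold of 0.05. These are RNA values, and the study reports an efficient knockdown with both HPSE guides from western blots of the protein. The libraries held 33221323 to 39802365 reads on features, so that 1 read was worth 0.903 to 1.06 normalized counts. Replicates of a cell line differed beyond counting noise (chi-square per gene, 21.7 to 26.6). All log2 differences were taken as SW480-45 minus SW480-NC on the scale of log2(normalized count + 1). Because these are bulk samples, fewer cells that express a gene and less RNA per cell cannot be told apart.

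Promoters are shown for genes that differed by at least 2-fold, GABRP, CLCN1 and SLC26A9 as higher and ANO1 as lower. ABCC8 and CA4 also differed by at least 2-fold, but no promoter was found for them. Whether the promoters have a part in the differences was not tested. RefSeq promoters on GRCh38.p14 were found for 5 of the 10 genes, GABRP, CLCN1, SLC26A9, CFTR and ANO1. Given here, from 5′ to 3′ along the gene, are the 250 bases before the start site for GABRP (chr5:170783475-170783724, plus strand), CLCN1 (chr7:143315861-143316110, plus strand), SLC26A9 (chr1:205943457-205943706, minus strand) and ANO1 (chr11:69985657-69985906, plus strand). Capitals mark matches on either strand. The TATA box was searched as TATAAA, the CCAAT box by those letters and the GC box as GGGCGG.
GABRP: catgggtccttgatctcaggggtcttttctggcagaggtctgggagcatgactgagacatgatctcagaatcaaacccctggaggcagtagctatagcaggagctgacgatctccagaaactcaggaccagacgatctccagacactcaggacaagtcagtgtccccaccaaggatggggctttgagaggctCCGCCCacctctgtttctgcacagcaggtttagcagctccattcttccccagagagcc
CLCN1: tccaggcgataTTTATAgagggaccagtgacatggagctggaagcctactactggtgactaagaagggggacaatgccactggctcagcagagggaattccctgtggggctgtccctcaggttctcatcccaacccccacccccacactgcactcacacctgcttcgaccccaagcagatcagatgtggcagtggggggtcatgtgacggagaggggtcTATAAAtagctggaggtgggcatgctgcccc
SLC26A9: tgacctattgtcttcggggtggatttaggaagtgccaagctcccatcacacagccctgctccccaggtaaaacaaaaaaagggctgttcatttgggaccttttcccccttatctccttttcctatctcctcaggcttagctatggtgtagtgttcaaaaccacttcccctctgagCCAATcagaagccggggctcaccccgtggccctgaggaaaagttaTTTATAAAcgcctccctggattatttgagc
ANO1: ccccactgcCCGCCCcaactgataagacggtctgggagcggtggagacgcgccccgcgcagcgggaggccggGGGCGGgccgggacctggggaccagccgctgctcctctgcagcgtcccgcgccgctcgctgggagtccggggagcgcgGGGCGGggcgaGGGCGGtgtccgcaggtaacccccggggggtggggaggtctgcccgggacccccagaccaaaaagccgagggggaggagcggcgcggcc
The 5 promoters differed in composition. Over 300 bases, from 250 before to 50 after the start, the ANO1 promoter held 76.0% G and C and 36 CG pairs, whereas those of GABRP, CLCN1 and SLC26A9 held 56.0%, 58.0% and 51.7% with 5, 4 and 6 CG pairs. The CFTR promoter lay between them with 60.7% and 12 CG pairs. The median over 35116 promoters was 58.7% and 14 CG pairs. TATAAA was found in CLCN1, with its first base at −31 and, on the minus strand, at −239, and in SLC26A9 at −28 and −30 on opposite strands, where both matches overlap. Of all promoters, 11.5% held these letters. CCAAT, held by 34.6%, was found in SLC26A9 at −75 and in CFTR at −61. GGGCGG, held by 45.0%, was found 4 times in ANO1, at −241, −178, −100 and −89, and once in GABRP at −58. TGACGTCA (cAMP response element), TGANTCA (AP-1 site) and CACGTG (E-box) were found in none of the 5 windows, against 1.8%, 7.7% and 7.3% of all promoters. The RefSeq starts of GABRP and CFTR lie inside the genes as GENCODE draws them, and that of ANO1 lies upstream of its gene, so other start sites of these genes were not covered.

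GABRP (ENSG00000094755, chromosome 5, 170763350 to 170814047, plus strand in GENCODE 29 on GRCh38) encodes the pi subunit of the GABA-A receptor, a chloride channel opened by GABA that is found in epithelia rather than in neurons. It had 278, 243 and 208 normalized counts in SW480-45 and 82.6, 77.3 and 94.4 in SW480-NC. The lowest SW480-45 library was above the highest control by more than the whole range of the controls. The means were 243 ± 35.1 and 84.8 ± 8.75 (SD, n = 3 each), a 2.87-fold higher level in SW480-45, and the log2 difference was 1.50 (SE 0.16). With each library left out and under every other setting it lay between 1.40 and 1.61.

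The next pair forms the ATP-sensitive potassium channel, which closes when the ATP of the cell is high. ABCC8 (ENSG00000006071, chromosome 11, 17392498 to 17476879, minus strand) encodes its regulatory subunit, the sulfonylurea receptor, and KCNJ11 (ENSG00000187486, 17385859 to 17389331, minus strand) encodes the pore. The genes lie side by side, 3.17 kb apart. ABCC8 had 179, 168 and 157 normalized counts in SW480-45 and 86.8, 65.7 and 78.5 in SW480-NC. All SW480-45 libraries were high and close together. The means were 168 ± 11.0 and 77.0 ± 10.7 (SD, n = 3 each), 2.18-fold higher in SW480-45, with a log2 difference of 1.13 (SE 0.16) that lay between 1.02 and 1.22 under the alternatives. KCNJ11 had 305, 311 and 265 normalized counts in SW480-45 and 259, 193 and 241 in SW480-NC. Here SW480-45 replicate 3 and SW480-NC replicate 1 nearly met. The means were 293 ± 25.0 and 231 ± 34.2 (SD, n = 3 each), 1.27-fold higher in SW480-45, and the log2 difference was 0.35 (SE 0.15), with 0.23 without SW480-NC replicate 2. Per kilobase of exon, the ratio of ABCC8 to KCNJ11 was 0.150, 0.138 and 0.151 in SW480-45 and 0.0852, 0.0865 and 0.0830 in SW480-NC. The regulatory subunit was thus the scarcer RNA of the pair in all 6 libraries, and the ratio did not overlap between the cell lines.

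**Figure D1:**
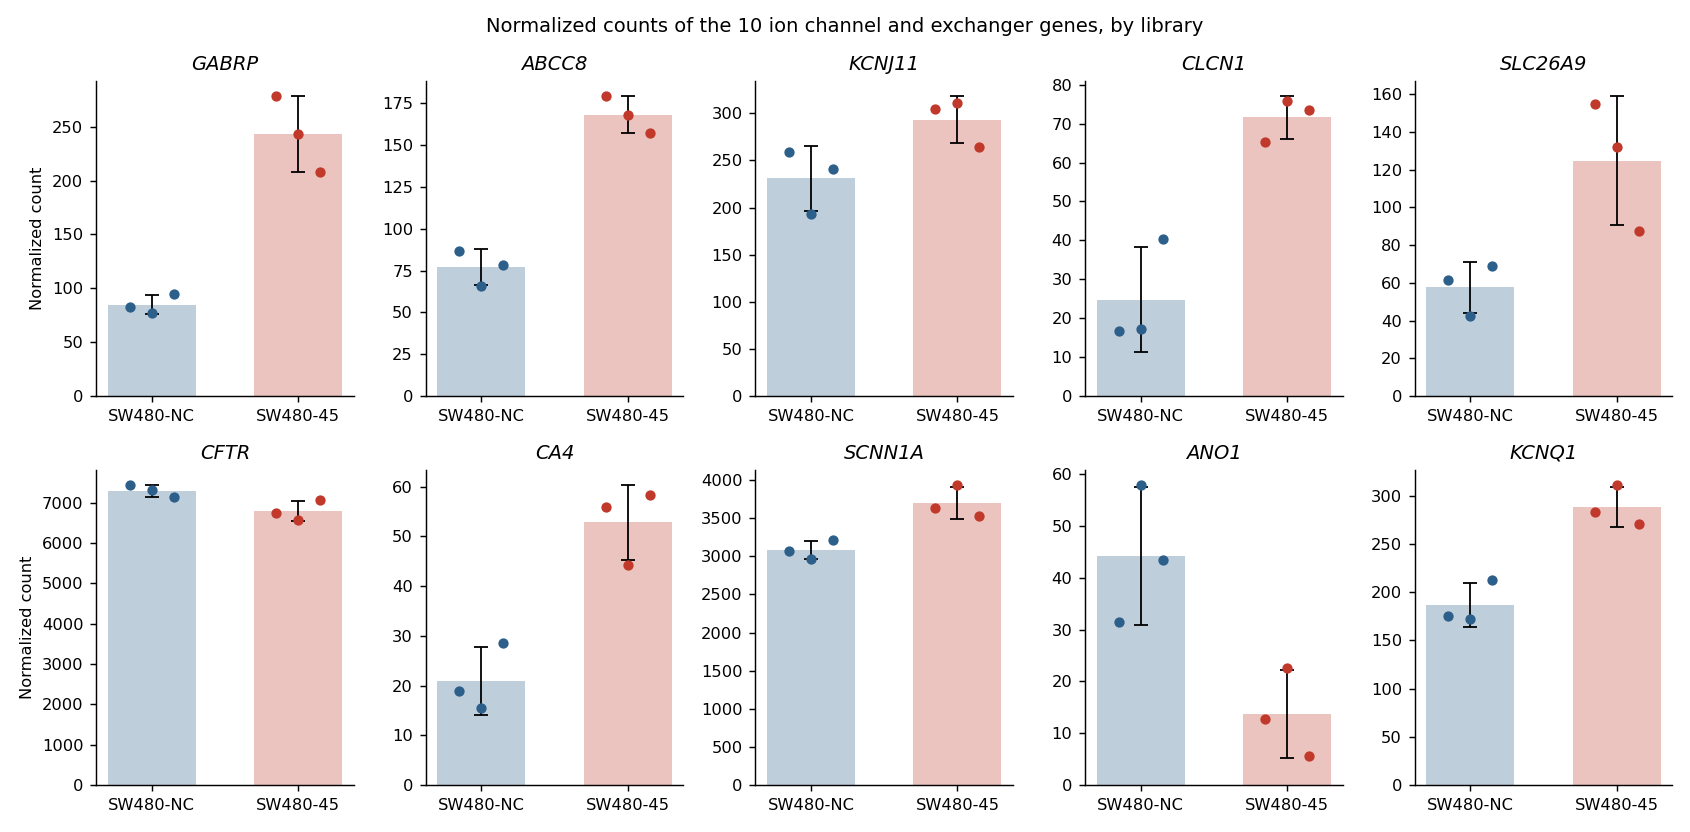
Normalized counts of the 10 genes (y axis, a separate scale for each gene, from 0), with 1 point per library, bars at the mean of 3 libraries and whiskers of 1 SD, SW480-NC in blue and SW480-45 in red. The points of the cell lines do not overlap in any panel, and ANO1 and CFTR are the genes with the lower bar in SW480-45.

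Among the anion pathways of the set, CFTR (ENSG00000001626, chromosome 7, 117465784 to 117715971, plus strand) was by far the most abundant. It encodes the chloride and bicarbonate channel opened by cAMP-dependent phosphorylation. CFTR had 6732, 6572 and 7055 normalized counts in SW480-45 and 7434, 7313 and 7139 in SW480-NC. The groups came close, with SW480-45 replicate 3 just under SW480-NC replicate 3. The means were 6787 ± 246 and 7295 ± 148 (SD, n = 3 each), a log2 difference of −0.10 (SE 0.06). With the quantile normalization it was −0.03, a shift of more than the spread between replicates.

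SLC26A9 (ENSG00000174502, chromosome 1, 205913048 to 205943460, minus strand) encodes a chloride channel and anion transporter of airway and stomach epithelium. It had 155, 132 and 87.6 normalized counts in SW480-45 and 61.7, 42.5 and 68.9 in SW480-NC. The SW480-45 libraries spread widely, and replicate 3 was nearest to the controls. The means were 125 ± 34.2 and 57.7 ± 13.7 (SD, n = 3 each), 2.16-fold higher in SW480-45, with a log2 difference of 1.09 (SE 0.27) and a range of 0.89 to 1.32 under the alternatives. Even so, SLC26A9 stayed far below CFTR, at 0.0307 ± 0.00908 of its level per kilobase in SW480-45 and 0.0132 ± 0.00324 in SW480-NC (SD, n = 3 each).

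ANO1 (ENSG00000131620, chromosome 11, 70078302 to 70189528, plus strand) encodes a chloride channel opened by calcium. It had 12.7, 22.6 and 5.65 normalized counts in SW480-45 and 31.4, 57.9 and 43.5 in SW480-NC. It was low in all 3 SW480-45 libraries, which rested on 12, 25 and 6 reads against 30, 60 and 41. The means were 13.6 ± 8.50 and 44.3 ± 13.3 (SD, n = 3 each), and the log2 difference was −1.77 (SE 0.50), with a range of −2.21 to −1.29 under the alternatives. Among the 10 genes, ANO1 in SW480-45 had the widest relative spread, with an SD of 62.4% of the mean.

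CLCN1 (ENSG00000188037, chromosome 7, 143316126 to 143352083, plus strand) encodes the voltage-gated chloride channel best known from skeletal muscle. It had 65.4, 75.9 and 73.5 normalized counts in SW480-45 and 16.7, 17.4 and 40.3 in SW480-NC. SW480-NC replicate 3 stood apart from the other controls, and the SD of the controls was 54.1% of their mean. The means were 71.6 ± 5.50 and 24.8 ± 13.4 (SD, n = 3 each), 2.89-fold higher in SW480-45, and the log2 difference was 1.61 (SE 0.35). Without SW480-NC replicate 3 it was 2.00, and the lowest value under the alternatives was 1.39. Of the skeletal muscle markers ACTA1, CKM and MYOG, which have a feature, the summed level was 0 to 6.32 normalized counts in SW480-45 and 0 to 7.32 in SW480-NC.

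CA4 (ENSG00000167434, chromosome 17, 60149936 to 60170899, plus strand) encodes a carbonic anhydrase anchored to the outer face of the membrane, which interconverts carbon dioxide and bicarbonate. It had 55.9, 44.3 and 58.4 normalized counts in SW480-45 and 18.8, 15.5 and 28.6 in SW480-NC. The SW480-45 libraries were all higher, on 53, 49 and 62 reads against 18, 16 and 27. The means were 52.8 ± 7.55 and 21.0 ± 6.84 (SD, n = 3 each), 2.52-fold higher in SW480-45, with a log2 difference of 1.33 (SE 0.30) and a range of 1.14 to 1.57 under the alternatives.

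For sodium uptake, SCNN1A (ENSG00000111319, chromosome 12, 6346843 to 6377730, minus strand), the alpha subunit of the epithelial sodium channel, was the second most abundant gene of the set. It had 3636, 3939 and 3527 normalized counts in SW480-45 and 3072, 2969 and 3213 in SW480-NC. The groups were separated by a small step. The means were 3701 ± 214 and 3085 ± 122 (SD, n = 3 each), 1.20-fold higher in SW480-45, and the log2 difference was 0.26 (SE 0.07). The ratio of CFTR to SCNN1A per kilobase was 1.16 ± 0.105 in SW480-45 and 1.49 ± 0.0808 in SW480-NC (SD, n = 3 each), with 1.05 in SW480-45 replicate 2. On the length of all exons, CFTR was thus the more abundant of these RNAs in both lines. With the length of the longest transcript the order was looked at only in SW480-NC, at 1190 for CFTR and 886 for SCNN1A.

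KCNQ1 (ENSG00000053918, chromosome 11, 2444684 to 2849110, plus strand) encodes a potassium channel that in colon crypts works on the basolateral side and supports chloride secretion. It had 284, 312 and 271 normalized counts in SW480-45 and 176, 172 and 213 in SW480-NC. All SW480-45 libraries were above the controls. The means were 289 ± 20.6 and 187 ± 22.8 (SD, n = 3 each), 1.55-fold higher in SW480-45, with a log2 difference of 0.63 (SE 0.14). The ratio of CFTR to KCNQ1 per kilobase was 11.2 ± 1.17 in SW480-45 and 18.8 ± 2.45 in SW480-NC (SD, n = 3 each).

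Per kilobase of exon the order in SW480-NC was CFTR at 781 ± 15.9 normalized counts, SCNN1A at 525 ± 20.8, KCNJ11 at 72.1 ± 10.7, KCNQ1 at 42.0 ± 5.12 and GABRP at 18.3 ± 1.89 (SD, n = 3 each). These 5 levels were separated by more than their SDs. The remaining 5 were SLC26A9 at 10.3 ± 2.43, CA4 at 8.65 ± 2.82, CLCN1 at 7.50 ± 4.06, ANO1 at 7.35 ± 2.21 and ABCC8 at 6.12 ± 0.846 (SD, n = 3 each), and each of these overlapped the next in the order within 1 SD. In SW480-45 GABRP reached 52.6 ± 7.59, next to KCNQ1 at 65.0 ± 4.64 (SD, n = 3 each). SLC26A9, CA4 and CLCN1 lay together at 21.6 to 22.2, ABCC8 followed at 13.4 ± 0.871, and ANO1 was lowest at 2.26 ± 1.41 (SD, n = 3 each). With the length of the longest annotated transcript in place of all exons, the first 5 genes in SW480-NC had the same order, at 1190 for CFTR down to 23.7 for GABRP, while CA4 at 18.2 moved ahead of SLC26A9 at 12.0, and CLCN1 at 7.82 was last.

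**Figure D2:**
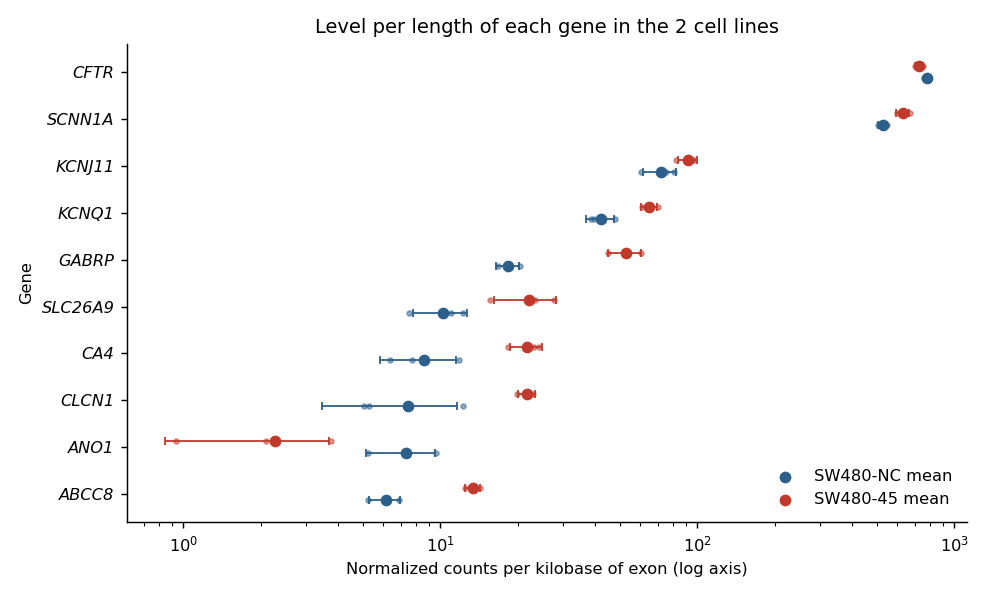
Level of each gene in normalized counts per kilobase of exon (x axis, log scale), ordered by the SW480-NC mean, with large points at the mean of 3 libraries, bars of 1 SD and small points for the libraries. CFTR and SCNN1A sit far to the right in both cell lines, from 525 to 781, and the 5 lowest genes lie between 6.12 and 10.3 in SW480-NC.

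The counts of the 10 genes past a threshold are given as a description, since the p-values come from the libraries on which the genes were selected and are no test of them. With limma's adjusted p under 0.05 and a change of 2-fold or more, 2 were higher, GABRP and ABCC8, and 0 were lower, beside 0.0968% of all features higher and 0.143% lower. This count was 0 with a replicate block, without the intensity trend and without SW480-45 replicate 1 or 2 or SW480-NC replicate 1 or 2, and 6 in DESeq2. The number of all features past both thresholds also changed, from 52 to 12 with the block, 11 without the trend and 131 in DESeq2. With a library left out it was 21 to 42. With the unadjusted p under 0.05 and the same fold, 5 were higher and 1, ANO1, was lower, beside 1.46% and 0.968% of all features. A log2 difference of at least 1 in either direction was found for 6 of the 10 and for 5.04% of all features, and one above 0 for 8 of the 10 and for 49.3%. The median log2 difference was 0.86 over the 10 genes and −0.01 over all features tested. In the plot of all features against their level, ANO1, CA4 and CLCN1 lie in the low range, where the spread of all features is widest.

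**Figure D3:**
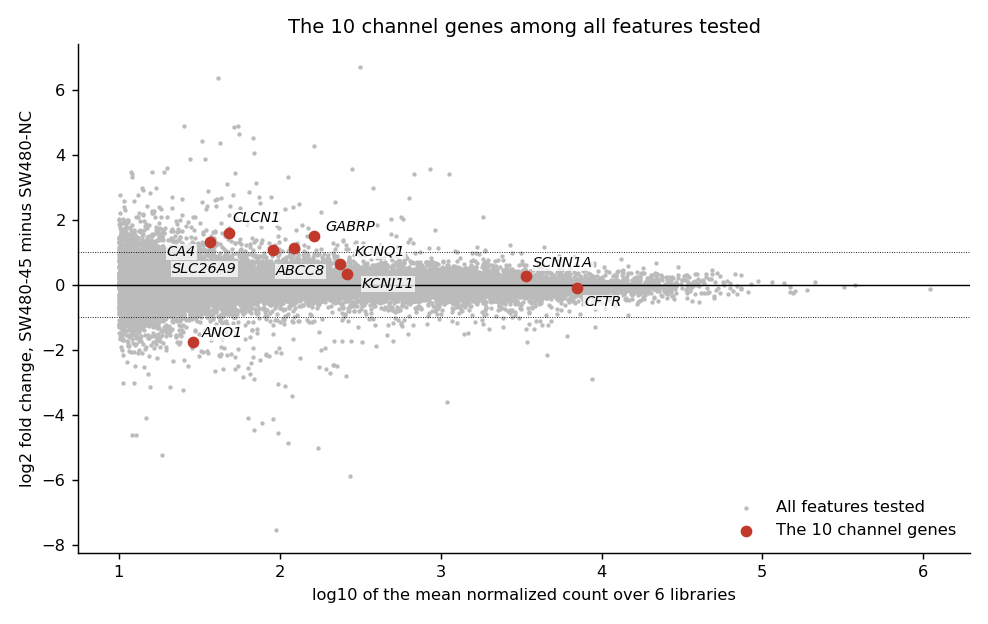
log2 difference, SW480-45 minus SW480-NC (y axis), against log10 of the mean normalized count over 6 libraries (x axis) for the 21703 features tested in grey and the 10 genes in red, with dotted lines at 2-fold. CFTR and SCNN1A lie close to 0 at high levels, and 6 of the 10 genes lie beyond the dotted lines.

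Some of the genes share exon sequence with a gene on the opposite strand, and the kit as named does not mark the strand. SCNN1A shares 422 exon bases (7.18% of its exons) with LTBR, which had 2840.2 ± 399.8 normalized counts in SW480-45 and 3177 ± 173 in SW480-NC (SD, n = 3 each), a log2 difference of −0.17 (limma, adjusted p = 0.489). KCNQ1 shares 121 bases (2.72%) with KCNQ1OT1, at −0.01 (limma, adjusted p = 0.969). ANO1 shares 646 bases (10.7%) with ANO1-AS1, which was not analysed here, so reads of that RNA could not be told from ANO1. GABRP, SLC26A9 and CFTR share 77, 73 and 51 bases with their largest opposite partner, and how reads in shared exons were assigned is not given in the sources used here.

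The nearest tested genes on the chromosome were also compared. Their gaps ran from 4.73 to 1160 kb, with up to 7 other protein-coding genes between, so not all are adjacent. Among the 18 nearest tested protein-coding genes on either side that are not in the set, 0 had an adjusted p under 0.05 from limma and 4 had an unadjusted p under 0.05, beside 0.802% and 16.2% of all features. With edgeR 0 passed, and with DESeq2 1 passed, LTO1, which lies 403 kb from ANO1 with 3 protein-coding genes between. The share of all features that passed in DESeq2 is not given here. LTO1 had 338 ± 62.7 normalized counts in SW480-45 and 599 ± 213 in SW480-NC (SD, n = 3 each), in the direction of ANO1, at −0.77 (limma, adjusted p = 0.251). Beyond ABCC8, USH1C is 17.0 kb away and had 2757 ± 252 normalized counts in SW480-45 and 2269 ± 288.5 in SW480-NC (SD, n = 3 each), a log2 difference of 0.28 (limma, adjusted p = 0.282). RANBP17, 47.8 kb from GABRP, was at 0.11 (limma, adjusted p = 0.768), and FADD, 13.6 kb from ANO1, was at 0.05 (limma, adjusted p = 0.870).

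The genes whose profile over the 6 libraries was most like GABRP were sought among 9721 genes that averaged 50 normalized counts or more, by the root mean square difference of log2 values after centring each gene. They were DEF6 at 0.220, LCN2 at 0.220 and DDIT4 at 0.224, against a median of 0.786. For ABCC8 they were DDIT4 at 0.093, CACNG4 at 0.100 and EPHB2 at 0.112, against a median of 0.601. With 3 libraries per cell line, a small difference mostly means a like step between the cell lines. These genes lie on other chromosomes than GABRP and ABCC8.

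The other genes of these families and pathways were followed in 9 lists with 124 genes, of which 84 had a feature and 51 passed the filter on low values. Of the 51, 25 were higher and 26 were lower in SW480-45, with a median log2 difference of −0.002 and a range of −0.82 to 1.64. By limma's adjusted p, 0 of the 51 passed, beside 0.802% of all features, and 11 had an unadjusted p under 0.05, beside 16.2%. The groups did not overlap for 17 of the 51, beside 23.4% of all features. With edgeR 0 passed, and with DESeq2 6 passed, PRSS8, WNK4, ANO8 and KCNE3 as higher and WNK1 and SLC4A7 as lower. Of these, PRSS8 was named after its values were seen. The share of all features that passed in DESeq2 at this threshold is not given here. With a change of 2-fold or more added, DESeq2 called 131 features and limma 52.

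**Figure D4:**
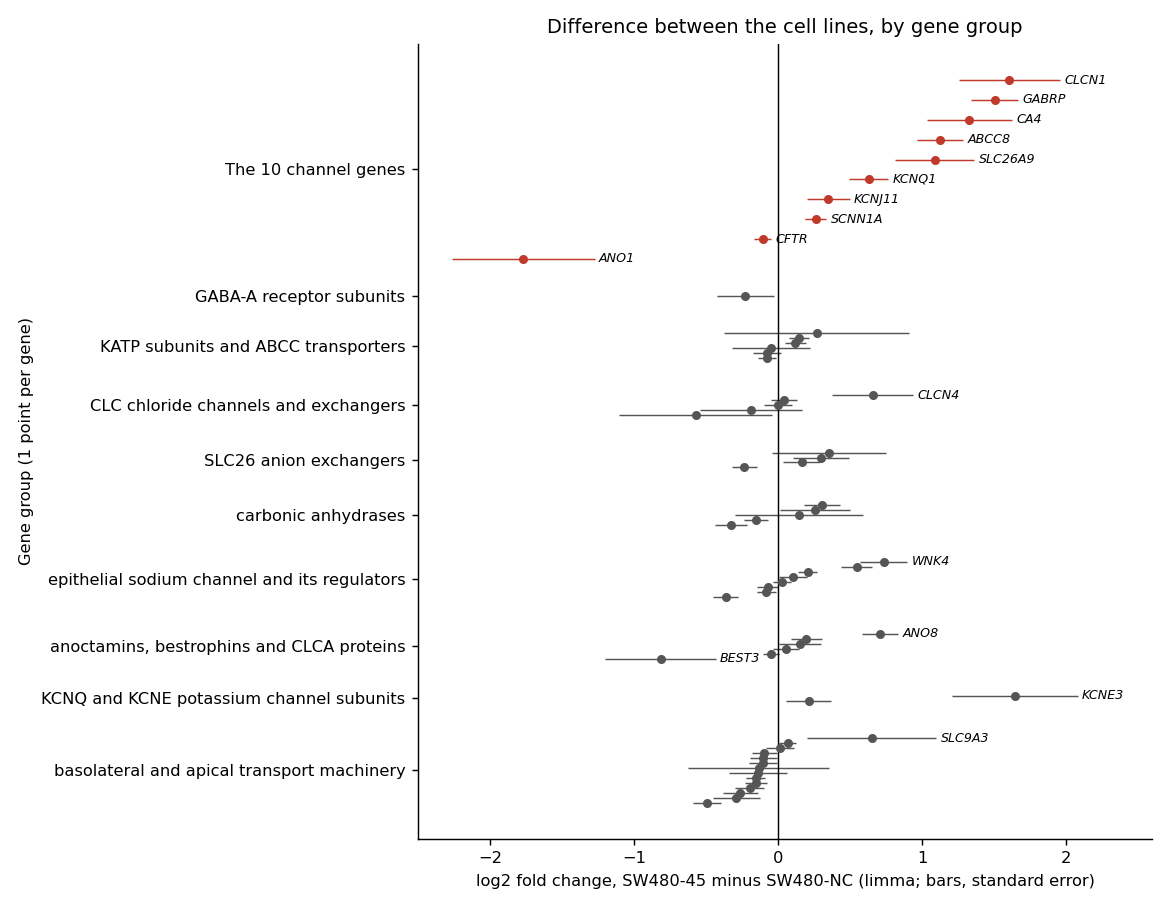
log2 difference, SW480-45 minus SW480-NC (x axis), with bars of 1 standard error from limma, for the 10 genes in red and for the 51 tested genes of the 9 lists in grey, 1 point per gene. The 10 genes were chosen with these values known, and the lists with earlier results of these data known. The 51 list genes together have a median of −0.002, with KCNE3 at 1.64 and BEST3 at −0.82 at their ends. Medians of single lists run from −0.23 (GABA-A receptor subunits, 1 gene tested) to 0.93 (KCNQ and KCNE subunits, 2 genes tested).

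Of 18 other GABA-A receptor subunits 7 had a feature and 1 passed the filter. This was GABRE, the epsilon subunit, with 204 ± 45.2 normalized counts in SW480-45 and 236 ± 31.1 in SW480-NC (SD, n = 3 each), a log2 difference of −0.23 (limma, adjusted p = 0.609) that was −0.04 without SW480-45 replicate 1. GABRR2, a rho subunit, was below the filter, with 2, 8 and 5 reads in SW480-45 and 0 in each control library, where 0 allows up to 3 reads. GABRB1, a beta subunit also below the filter, had 0, 2 and 0 reads in SW480-45 and 3, 6 and 5 in SW480-NC, the opposite direction. Both were named after their values were seen. Per kilobase, GABRE in SW480-NC was at 24.5, near GABRP at 18.3.

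Of the partners of the ATP-sensitive potassium channel, KCNJ8 and ABCC9, which encode the other pore and the other sulfonylurea receptor, were not analysed here. The 6 ABCC transporters tested had a median of 0.04, with 3 higher and 3 lower. ABCC3, which exports conjugated bile acids and drugs, had the highest level per kilobase in SW480-NC of these, 1419, and a log2 difference of 0.15 (limma, adjusted p = 0.338). ABCC4, an exporter of cyclic nucleotides, was lowest at −0.08 (limma, adjusted p = 0.608). ABCC6 was highest at 0.27 (limma, adjusted p = 0.871), but it had 19.1 ± 3.40 and 19.9 ± 14.1 normalized counts (SD, n = 3 each) and turned to −0.48 without SW480-NC replicate 2 and to −0.04 with edgeR.

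In the CLC family, 5 of 10 genes were tested, 2 higher and 3 lower. CLCN4, an endosomal chloride-proton exchanger, had 55.4 ± 13.3 normalized counts in SW480-45 and 34.9 ± 8.66 in SW480-NC (SD, n = 3 each), a log2 difference of 0.66 (limma, adjusted p = 0.303). CLCN5, another endosomal exchanger, was lowest at −0.57 (limma, adjusted p = 0.634), with 561, 183 and 197 normalized counts in SW480-45 and 545, 203 and 604 in SW480-NC. These values split widely within each line, and the difference was −1.09 with SW480-45 replicate 1 left out, −1.07 with SW480-NC replicate 2 left out and −0.29 with SW480-NC replicate 3 left out. CLCN3 had the highest level per kilobase, 702 in SW480-NC, and its log2 difference of −0.19 (limma, adjusted p = 0.833) turned positive without SW480-45 replicate 3 and without SW480-NC replicate 2. Among the SLC26 exchangers 4 of 10 were tested, 3 higher and 1 lower. SLC26A1 was at 0.35 (limma, adjusted p = 0.695; 0.06 to 0.73 with a library left out), and SLC26A2, the most abundant of them and a sulfate transporter, was at −0.23 (limma, adjusted p = 0.249). SLC26A3, the chloride-bicarbonate exchanger of the colon surface, had 0 reads in each SW480-45 library and 4, 3 and 0 in the controls.

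Of 14 other carbonic anhydrases 5 were tested, 3 higher and 2 lower. CA2, the abundant cytosolic enzyme, was at 1558 normalized counts per kilobase in SW480-NC and had a log2 difference of −0.16 (limma, adjusted p = 0.397). CA9, a membrane enzyme induced by hypoxia, was at 0.30 (limma, adjusted p = 0.293; 0.20 without SW480-NC replicate 2) and CA13 at −0.33 (limma, adjusted p = 0.220).

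Of 11 subunits and regulators of the epithelial sodium channel 8 were tested, 5 higher and 3 lower, with a median of 0.07. The beta and gamma subunits SCNN1B and SCNN1G were not analysed here, and SCNN1D was below the filter. WNK4, a kinase that regulates ion transporters, had 199.9 ± 21.0 normalized counts in SW480-45 and 120.2 ± 17.3 in SW480-NC (SD, n = 3 each), a log2 difference of 0.73 (limma, adjusted p = 0.102). Its relative WNK1 was lowest at −0.36 (limma, adjusted p = 0.114). PRSS8, the protease prostasin that activates the channel, had 1074 ± 84.8 and 735 ± 65.4 (SD, n = 3 each), a log2 difference of 0.55 (limma, adjusted p = 0.0783). ST14, matriptase, had the highest level per kilobase, 2871 in SW480-NC, and was at −0.07 (limma, adjusted p = 0.659).

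Among the anoctamins, bestrophins and CLCA proteins 6 of 16 were tested, 4 higher and 2 lower. ANO8, a relative of ANO1 found at contacts between membranes, had 215 ± 16.6 normalized counts in SW480-45 and 131 ± 0.744 in SW480-NC (SD, n = 3 each), a log2 difference of 0.71 (limma, adjusted p = 0.0603), opposite in sign to ANO1. ANO6, a scramblase of membrane lipids and the most abundant of them, was at −0.05 (limma, adjusted p = 0.722) and turned to 0.02 with quantile normalization. BEST3 was lowest at −0.82 (limma, adjusted p = 0.341) and at −0.49 without SW480-45 replicate 1.

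KCNE3, the beta subunit that pairs with KCNQ1 in the colon, had 67.5, 54.2 and 50.9 normalized counts in SW480-45 and 20.9, 29.9 and 8.48 in SW480-NC. The groups did not overlap, and the controls spread widely. The means were 57.5 ± 8.79 and 19.8 ± 10.8 (SD, n = 3 each), a log2 difference of 1.64 (SE 0.44, limma, adjusted p = 0.140), the largest of the 51. The study's own selection from these samples also holds KCNE3, so it is not independent evidence.

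The rest of the transport machinery lay mostly slightly below 0, with 3 of 14 tested genes higher and 11 lower and a median of −0.14. SLC12A2, the basolateral cotransporter that loads chloride for secretion, had 40882 ± 2729.5 normalized counts in SW480-45 and 38938 ± 712 in SW480-NC (SD, n = 3 each), a log2 difference of 0.07 (limma, adjusted p = 0.610). SLC4A7, a sodium-bicarbonate cotransporter, was lowest at −0.49 (limma, adjusted p = 0.0783), with 2919.7 ± 215 and 4115 ± 394 normalized counts (SD, n = 3 each). SLC9A3, the apical sodium-proton exchanger, was highest at 0.65 (limma, adjusted p = 0.515), but ranged from 0.23 (SW480-NC replicate 2 left out) to 1.00 (SW480-NC replicate 1 left out). KCNN4, the calcium-activated potassium channel, was below the filter, with 14, 11 and 11 reads in SW480-45 and 0, 1 and 0 in SW480-NC.

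Markers of the colon epithelium and of other cell types known for these channels were examined, and KRT20 was the only one with an adjusted p under 0.05 in limma. Of 9 colon epithelium markers 6 had a feature, and their summed level was 113827 to 121953 normalized counts in SW480-45 and 130582 to 138287 in SW480-NC. This sum was mostly KRT8, at 75512 ± 4413 and 87410 ± 3039 (SD, n = 3 each), a log2 difference of −0.21 (limma, adjusted p = 0.141). EPCAM, KRT8, KRT20, VIL1 and LGALS4 were abundant, and CDX2 was low at 28.8 ± 8.77 and 34.0 ± 6.64 (SD, n = 3 each). VIL1 was higher in SW480-45, at 0.20 (limma, adjusted p = 0.225). EPCAM, LGALS4 and CDX2 were at −0.09, −0.06 and −0.26 (limma, adjusted p = 0.454, 0.792 and 0.726). KRT20, a keratin of differentiated colon cells, was lower in SW480-45, with 4541 ± 82.3 against 7952 ± 619 normalized counts (SD, n = 3 each), a log2 difference of −0.81 (limma, adjusted p = 0.00719), and its part in the channel values was not tested. Of 6 pancreatic beta cell markers 3 had a feature, with a sum of 70.7 to 89.6 in SW480-45 and 45.4 to 53.3 in SW480-NC, nearly all from PDX1, which was at 0.67 (limma, adjusted p = 0.151), while NKX6-1 and MAFA had at most 5 reads in a library. The 6 neuron markers summed to 542 to 580.3 and 506 to 627, mostly GAD1, and SNAP25 had at most 5 reads in a library. Of 6 ionocyte and BEST4 cell markers 5 had a feature, with sums of 12.6 to 22.6 and 9.54 to 19.9. Of 7 markers of fibroblasts, endothelium and leukocytes 4 had a feature, with sums of 243 to 372 and 208 to 265, mostly COL1A1, and COL1A2 had at most 1 read.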

How the data were processed

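RNA of 3 SW480-45 and 3 SW480-NC libraries was sequenced on an Illumina HiSeq instrument after NEBNext Ultra library preparation. The submitters' processing notes name bcl2fastq, HISAT2, DESeq2 and the build GRCh38, the study's methods name Cuffdiff for the comparison, and the assembler is not given in the sources used here. The values the authors deposited are a signal per feature, gene counts divided by 1 size factor per library, for 25927 Ensembl identifiers and 33265 assembler loci. Whole reads were recovered for 100.0% of the values within a tolerance of 0.01.

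Groups were taken from the sample titles. limma 3.58.1 in R 4.3.3, with an intensity trend, was fitted on log2(normalized count + 1) for the 21703 features that averaged 10 or more, with Benjamini-Hochberg adjustment. The p-values measure the spread between independent experiments in a single pair of cell lines. Alternatives were another pseudocount (5), other filters, scalings and variance models, Ensembl features alone, a replicate block, each library left out, and edgeR 4.0.16 and DESeq2 1.42.0 on the recovered reads. Only the limma, edgeR and DESeq2 calls were tried on simulated counts, with changes larger than those of the 10 genes. The other steps were not simulated. Coordinates and lengths are from GENCODE 29, neighbours are the nearest tested protein-coding genes, and matplotlib 3.10.9 (Python 3.11.15) drew the figures. Counting error alone lets 0 reads stand for up to 3.

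The 10 genes, the 9 lists, the markers and the motifs were chosen with earlier results of these data known. The text names the 10 genes, HPSE, of each list the genes with the highest and lowest log2 fold change and the highest level per kilobase, a fixed set of direct partners (KCNJ8, ABCC9, SCNN1B, SCNN1G, KCNE3, GABRE, SLC12A2, KCNN4 and SLC26A3), and the 3 genes nearest in profile to GABRP and to ABCC8. PRSS8, GABRR2, GABRB1, SCNN1D and LTO1 were named outside this rule, after their values were seen. Results of a few genes that this rule would name are not reported here. Genes without a feature of their own, which can lie in an assembler locus, were not analysed here.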

Additional observations from a re-analysis of the deposited data

How the results depend on the processing

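The direction of all 10 channel genes was the same under every alternative. As their groups did not overlap, leaving a library out could not turn a direction. The filters, the intensity trend and the block leave the log2 difference itself unchanged. Of their 120 values under the settings that can change them, 119 moved by less than the spread between replicates. The exception was CFTR, at −0.03 with quantile normalization. Values with a library left out cannot move by more than that spread, so for them this comparison was no check. The count of 52 features past both thresholds was 11 without the intensity trend, 33 with Ensembl features alone, 131 in DESeq2 and 21 to 42 with a library left out (21 without SW480-NC replicate 1, 28 without SW480-NC replicate 2, 34 without SW480-45 replicate 2). Counts of the 10 genes are again a description and no test, since the genes were selected on these libraries. Of the 10, GABRP and ABCC8 passed both thresholds. The count of the 10 was 0 without the trend, 6 in DESeq2 and 0 to 2 with a library left out. It was 0 without SW480-45 replicate 1 or 2 and without SW480-NC replicate 1 or 2, GABRP alone without SW480-45 replicate 3, and GABRP and CLCN1 without SW480-NC replicate 3. By the unadjusted p and 2-fold change, 6 passed, 3 at a mean of at least 50, where 7 of the 10 were tested, and 5 to 6 with a library left out. In the fit as reported, 1.46% of all features passed this rule as higher and 0.968% as lower. For the other settings that share is not given here. By the adjusted p alone, at any fold, 0 of the listed genes passed, 1 with all features (SLC4A7), 1 at a mean of at least 50 (ANO8) and 6 in DESeq2. In the fit as reported, 0.802% of all features passed this threshold, and the share under the other settings is not given here. HPSE, under 2-fold throughout, had an adjusted p under 0.05 with all features (−0.83, adjusted p = 0.0451), at a mean of at least 50 (−0.83, adjusted p = 0.0460), with Ensembl features alone (−0.83, adjusted p = 0.0462, all from limma) and in DESeq2 (−0.83, adjusted p = 0.000948), and ranged from −0.93 to −0.76 with a library left out. ABCC6 turned to −0.038 in edgeR and ranged from −0.484 to 0.785 with a library left out, CLCN3 ranged from −0.598 to 0.059, with positive values without SW480-45 replicate 3 (0.033) and SW480-NC replicate 2, and ANO6 turned to 0.019 with quantile normalization. The causes were not tested. No scaling moved the median of all features by more than 0.1.

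With the replicate number as a block, 12 features and 0 of the 10 genes passed, and HPSE had an adjusted p of 0.169 from limma. Deviations of same-numbered libraries correlated at 0.002, −0.02 and 0.007, and not every library correlated best with its own number, so the numbers were not taken as a pairing.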
